A study of Saccharomyces cerevisiae with 8 samples.

Results

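The native yeast genome was compared between the strains grown in SC-Leu and those grown in YPD, with peaks on the sequence of the synthetic locus and its vector left out. The vector's *LEU2* gene is the exception, since its reads stand at the chromosomal *LEU2* of the reference, which these strains lack. The members were all peaks on the chromosomes and the mitochondrial genome, 8701 of the 9025 peaks in 8 lists. Peaks of different lists that overlapped by at least 1 bp were merged into 1864 regions, and each region was described by the number of SC-Leu and of YPD libraries with a peak in it.

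The study built the human *HPRT1* locus and its reversed sequence, *HPRT1R*, as large synthetic DNAs and asked how chromatin forms on each in yeast. ATAC-seq was used to map open chromatin: a transposase inserts sequencing adapters where DNA is accessible. The 8 libraries came from 4 strains, each sampled as 2 independent clones, and every strain was made from BY4741, which carries *his3Δ1*, *leu2Δ0*, *met15Δ0* and *ura3Δ0*. The 4 SC-Leu libraries came from strains with *HPRT1* or *HPRT1R* as an episome, a circular molecule on a *LEU2* vector with a yeast centromere, which SC-Leu medium selects because it lacks leucine. The 4 YPD libraries came from strains with the same DNA integrated on chromosome XI, without *LEU2*, in rich medium. The integrated strains had been derived from episome strains through a *URA3* landing pad, recombination and selection against *URA3*. Cultures of every strain were grown at 30 °C for 6 h from an OD of 0.1 to about 0.6, tagmentation took 30 min, and 11 cycles of PCR followed. Medium, context of the locus and strain history changed together, so that their parts in any difference cannot be told apart.

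As background, most yeast promoters carry a short nucleosome-depleted stretch upstream of the coding start, which gives the peaks of an ATAC-seq library, and tRNA genes are kept open by their transcription factors. Medium without leucine requires the branched-chain pathway, whose enzymes *ILV2*, *ILV5*, *ILV3*, *BAT1* and *BAT2* build valine, isoleucine and the precursor of leucine, and whose *LEU4*, *LEU9*, *LEU1* and *LEU2* make leucine itself. The factor Leu3 acts at several of these genes, and Gcn4 acts at amino acid genes when amino acids run short. Amino acids in a medium are sensed at the cell surface, and the factor Stp1 then turns on permease genes such as *AGP1*.

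The following 7 windows of 200 bp around the median summit are shown as examples of regions named below. *AGP1* and *LYS21* among them were not called different between media. The windows are read on the forward strand of the R64 reference (sacCer3) from RefSeq. Capitals mark motif matches on either strand in the first 4 and the tRNA gene, or the part of it within the window, in the last 3. The motifs were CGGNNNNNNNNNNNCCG for Gal4, GATAAG for GATA factors, TGACTC for Gcn4, TCCNNNGGA for Lys14, CACGTG for Cbf1 and Pho4, TTACCC for Reb1 and CCGNNNNCGG for Leu3.
GAL2, upstream of the gene, chrXII:289687-289886: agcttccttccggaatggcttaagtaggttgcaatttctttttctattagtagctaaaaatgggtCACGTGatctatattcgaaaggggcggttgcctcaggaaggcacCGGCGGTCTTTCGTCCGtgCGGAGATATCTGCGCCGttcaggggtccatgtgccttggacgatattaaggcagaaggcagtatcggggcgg
DAL3, between DAL3 and MGA2, chrIX:415707-415906: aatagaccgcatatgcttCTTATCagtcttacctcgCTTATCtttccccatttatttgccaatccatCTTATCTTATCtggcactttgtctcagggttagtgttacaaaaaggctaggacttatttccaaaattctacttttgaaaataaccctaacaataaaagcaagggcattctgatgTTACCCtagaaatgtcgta
AGP1, upstream of the gene, chrIII:78261-78460: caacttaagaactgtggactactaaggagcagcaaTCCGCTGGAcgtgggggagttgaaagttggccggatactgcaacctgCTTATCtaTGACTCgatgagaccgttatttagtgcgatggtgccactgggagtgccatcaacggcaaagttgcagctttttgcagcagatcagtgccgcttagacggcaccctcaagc
LYS21, upstream of the gene, chrIV:227010-227209: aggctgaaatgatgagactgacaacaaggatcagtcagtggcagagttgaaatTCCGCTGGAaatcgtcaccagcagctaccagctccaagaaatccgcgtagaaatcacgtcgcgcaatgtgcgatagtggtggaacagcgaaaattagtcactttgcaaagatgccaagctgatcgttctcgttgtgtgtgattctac
YNCL0001W, a proline tRNA gene, chrXII:92582-92781: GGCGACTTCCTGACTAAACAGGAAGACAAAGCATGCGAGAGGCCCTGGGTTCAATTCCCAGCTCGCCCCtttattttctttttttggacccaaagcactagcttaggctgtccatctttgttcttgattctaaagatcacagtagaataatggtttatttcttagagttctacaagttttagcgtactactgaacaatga
IMT3, an initiator methionine tRNA gene, chrX:517751-517950: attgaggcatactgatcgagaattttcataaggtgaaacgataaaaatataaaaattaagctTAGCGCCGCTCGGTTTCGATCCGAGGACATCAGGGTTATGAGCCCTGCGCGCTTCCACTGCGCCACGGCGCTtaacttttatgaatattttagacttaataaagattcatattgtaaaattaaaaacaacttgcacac
IMT4, an initiator methionine tRNA gene, chrV:100062-100261: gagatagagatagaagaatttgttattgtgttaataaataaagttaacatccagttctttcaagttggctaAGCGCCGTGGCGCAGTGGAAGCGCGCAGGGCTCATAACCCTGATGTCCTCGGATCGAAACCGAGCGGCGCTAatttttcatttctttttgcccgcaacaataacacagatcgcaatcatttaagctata
The *GAL2* window held the Gal4 motif 2 times and CACGTG once, and the Gal4 motif stood in 4.02% of all 1864 windows of this length. The *DAL3* window held GATAAG 4 times, with 2 matches that overlapped by 1 base, and TTACCC once. GATAAG was in 9.07% of all windows and TTACCC in 17.4%. The *AGP1* window held the Gcn4, GATA factor and Lys14 motifs once each, and the *LYS21* window held TCCNNNGGA once. TGACTC stood in 5.85% of all windows and TCCNNNGGA in 3.38%. CACGTG stood in 5.26% and the Leu3 motif in 3.06%. Of the 50 YPD and 13 SC-Leu regions in the classes given below, 3 and 0 held the Gal4 motif, 5 and 2 GATAAG and 5 and 1 TGACTC. TCCNNNGGA stood in 0 and 0, TTACCC in 9 and 0, CACGTG in 2 and 0 and the Leu3 motif in 1 and 0. The windows of *ILV5*, *LSB5* and *MET4*, which are not shown, held none of the 7 motifs.

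The SC-Leu lists held 1019 and 1007 native peaks for the *HPRT1* episome and 1059 and 1028 for the *HPRT1R* episome. The YPD lists held 1091 and 1010 for integrated *HPRT1* and 1299 and 1188 for integrated *HPRT1R*. The 2 integrated *HPRT1R* libraries therefore stood apart, and they also had the lowest genome-wide background at the summits, 5.42 and 4.97 fragments, against 5.63 to 6.93 in the other 6 libraries. SC-Leu libraries averaged 1028 ± 22.2 native peaks and YPD libraries 1147 ± 125 (SD, n = 4 each), a difference of -119 that an exact two-sided permutation test did not separate from the spread between libraries (p = 0.114, adjusted p = 0.524 over 5 measures). The bases in peaks (383641 ± 6499 in SC-Leu, 421004 ± 47728 in YPD), the median fold enrichment (3.43 ± 0.188 in SC-Leu, 3.64 ± 0.27 in YPD), the background (6.03 ± 0.605 in SC-Leu, 5.77 ± 0.745 in YPD) and the percentage of summits in promoters (64.1 ± 0.557 in SC-Leu, 64 ± 1.22 in YPD; SD, n = 4 each) did not differ beyond that spread either (adjusted p of at least 0.524 for each by exact permutation). With 4 against 4 libraries the smallest p this test can give is 0.0286. The total number of reads is not in these lists, and the called peaks had a median of 23 to 26 fragments at the summit.

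More than any other pattern, regions were common to all libraries or seen once. Of the 1864 regions, 514 (27.6%) had a peak in all 8 libraries and 477 (25.6%) in only 1. Peaks were found in more SC-Leu than YPD libraries at 418 regions, in more YPD than SC-Leu libraries at 716, and in equal numbers at 730. A peak in SC-Leu libraries only was seen at 229 regions, 195 of them in a single library, and a peak in YPD libraries only at 391, 282 of them in a single library. The mitochondrial genome gave 24 regions, of which 14 were in all 8 libraries, and none was in the classes that follow.

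**Figure D1:**
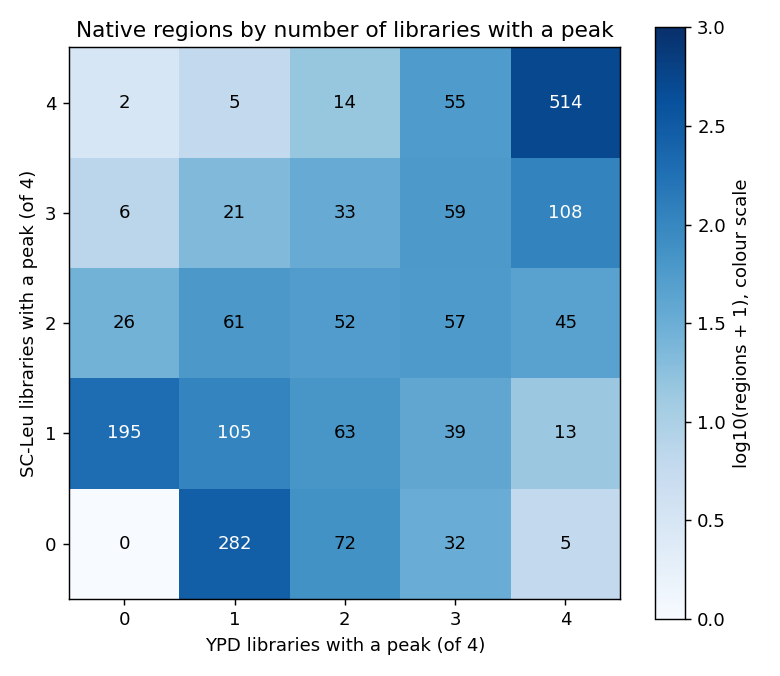
The number of native regions is printed for each combination of SC-Leu libraries with a peak (rows, 0 to 4) and YPD libraries with a peak (columns, 0 to 4), with the colour on a log10 scale. The 514 regions with a peak in all 8 libraries stand in the upper right corner, and the 2 SC-Leu regions and 5 YPD regions with 4 against 0 in the other corners.

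At the strictest cut-off, a peak in all 4 libraries of one medium and in none of the other, SC-Leu had 2 regions (0.107% of 1864) and YPD had 5 (0.268%). One of the 2 was *LEU2*, whose absence from the YPD libraries was fixed by genotype, so that 1 SC-Leu region, in *ILV5*, was left for the comparison of media. With 4 libraries against 1, SC-Leu had 5 regions (0.268%) and YPD had 13 (0.697%). With 3 against 0, SC-Leu had 6 (0.322%) and YPD had 32 (1.72%). The 3 classes thus held 13 SC-Leu and 50 YPD regions. The same counts were taken for all 35 ways of dividing the 8 libraries into 4 and 4. The division by medium gave 7, 18 and 38 regions in the 3 classes, the division by locus (*HPRT1R* against *HPRT1*) 5, 17 and 20, and the division by replicate number 1, 12 and 23. Over the 35 divisions the counts ran from 0 to 8, from 10 to 25 and from 13 to 38, with medians of 4, 14 and 23. At least as many regions as by medium were found in 3 divisions for 4 against 0, in 11 for 4 against 1 and in 1, that by medium itself, for 3 against 0. Without the *LEU2* region the division by medium gave 6 regions of 4 against 0, and 5 of the 35 divisions gave at least as many.

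The peaks of these regions were weak. Their median fold enrichment was between 2.84 and 3.32 over the 6 classes, and their median -log10 q between 3.15 and 4.71, while the medians of all native peaks ran from 3.15 to 4.02 and from 5.25 to 6.86 in the 8 libraries. None of the 4 SC-Leu libraries had a value above 3.85 at the SC-Leu 4 against 0 regions, and none of the 4 YPD libraries a value above 4.19 at the YPD ones.

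The SC-Leu regions of 4 against 0 both lay in genes of the branched-chain pathway. One covered *LEU2* (YCL018W, chrIII:91324-92418), the enzyme isopropylmalate dehydrogenase, in a region at chrIII:91080-92376. Fold enrichment there was 3.85 and 3.28 in the *HPRT1* episome libraries and 3.32 and 2.49 in the *HPRT1R* episome libraries, and no YPD library had a peak within 11108 bp. The parent BY4741 lacks *LEU2* on the chromosome (*leu2Δ0*), and the episome vector carries a *LEU2* copy that the integrated strains do not have, so that the peaks here are those of the vector's copy and the 0 in YPD follows from the missing DNA. The summits lay at 4 different places, at 91151, just before the gene, and at 91479, 91638 and 92237 within it. These fold enrichments were not corrected for the copy number of the episome, so that extra copies cannot be told from open chromatin there. The other region, at chrXII:838125-838915, lay inside the coding sequence of *ILV5* (YLR355C, chrXII:838066-839253), the reductoisomerase of the pathway, with a median summit 753 bp downstream of its start. Its fold enrichment was 2.96 and 3.15 in the *HPRT1* episome libraries and 3.23 and 3.08 in the *HPRT1R* episome libraries, with a mean of 3.1 ± 0.113 (SD, n = 4). No YPD library had a peak there, but the nearest YPD peak was only 325 bp away. The *ILV5* promoter itself had a peak in all 4 SC-Leu libraries (fold enrichment 4.15, 4.03, 4.56 and 4.54) and in 3 of 4 YPD libraries (3.12, 4.36 and 3.35). The *ILV5* gene, unlike *LEU2*, is on the chromosome of all the strains.

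Of the 5 YPD regions of 4 against 0, the one upstream of *GAL2* had summits within 5 bp of each other. *GAL2* (YLR081W, chrXII:290212-291936) encodes the galactose permease. Fold enrichment at chrXII:289671-289951 was 3.12 and 3.86 in the integrated *HPRT1* libraries and 2.96 and 3.68 in the integrated *HPRT1R* libraries. The 4 summits lay at -425, -425, -424 and -429 bp from the coding start, in the window shown above with 2 Gal4 motifs, and the nearest SC-Leu peak was 6670 bp away. The region between *LSB5* and *GRX1*, the second a glutaredoxin that protects against oxidative stress, lay at chrIII:61360-61948. Its fold enrichment was 3.51 and 3 in the integrated *HPRT1* libraries and 2.96 and 4.19 in the integrated *HPRT1R* libraries, and its window held none of the 7 motifs.

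The remaining 3 YPD regions of 4 against 0 lay at tRNA genes and at a transposon. The proline tRNA gene YNCL0001W, whose sequence has 1 exact copy in the genome, had fold enrichments of 3.38 and 3.29 with integrated *HPRT1* and of 4.05 and 3.35 with integrated *HPRT1R*. The alanine tRNA gene YNCJ0005C had 3.51 and 3.14 with integrated *HPRT1* and 2.8 and 4.02 with integrated *HPRT1R*, with the nearest SC-Leu peak 1128 bp away. Its 73 bp have 11 exact copies in the genome, and the nearest coding gene, YJL114W, belongs to a transposon. The region at chrVI:138395-138720 lay in YFL002W-A, a gag-pol gene, and had 3.12 and 3.29 with integrated *HPRT1* and 3.11 and 2.85 with integrated *HPRT1R*, with the nearest SC-Leu peak 764 bp away. None of the 36-bp stretches of its window was unique in the genome, so that reads there cannot be assigned to 1 place.

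**Figure D2:**
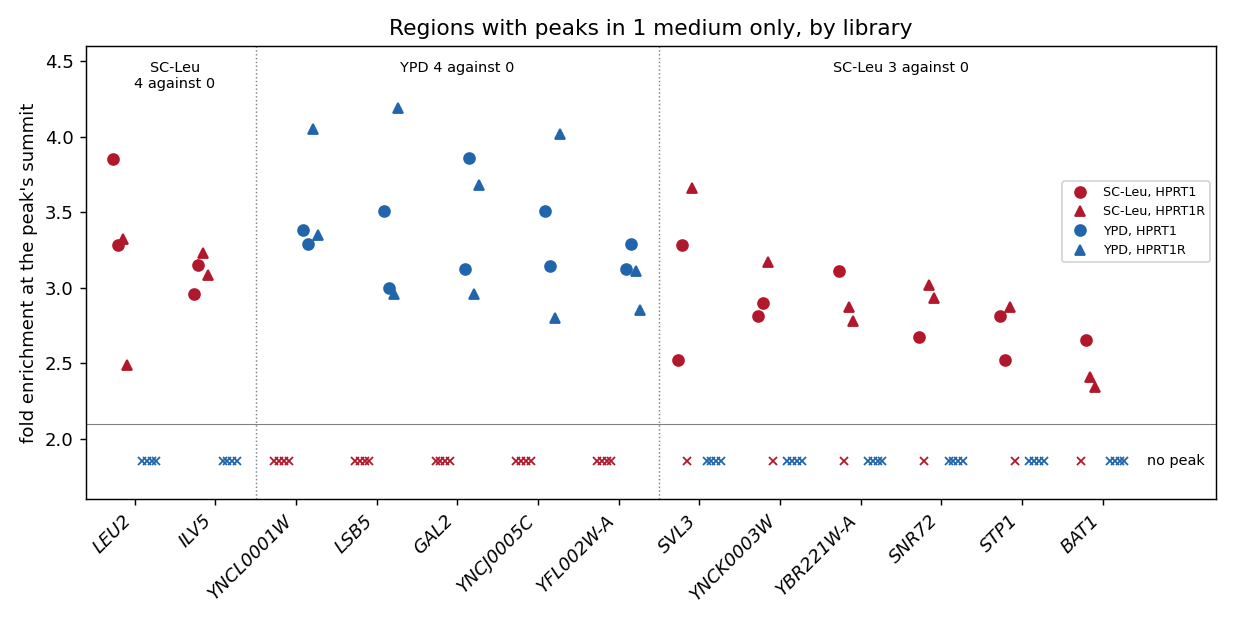
Fold enrichment at the summit (vertical axis) is shown for each library at the 7 regions with 4 against 0 and the 6 SC-Leu regions with 3 against 0, SC-Leu left and YPD right within each region, with circles for *HPRT1* and triangles for *HPRT1R* strains and crosses for libraries with no peak. Values lie between 2.34 (*BAT1*) and 4.19 (*LSB5*).

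The SC-Leu regions of 4 against 1 lay upstream of *RFX1*, a repressor of the DNA damage response, *SUP35*, the translation release factor known for its prion, and *MIG2*, a repressor of glucose-repressed genes, inside a coding gene upstream of *TUB4*, the gamma-tubulin, and at *IMT3*, an initiator methionine tRNA gene. At *RFX1* the SC-Leu libraries had 3.41 and 3.53 with *HPRT1* and 3.47 and 3.81 with *HPRT1R*, and 1 YPD library had 3.89, which was above all 4 SC-Leu values. At *SUP35* the SC-Leu values were 3.41 and 2.65 with *HPRT1* and 3.32 and 3.22 with *HPRT1R*, against 3.43 in 1 YPD library, again above all 4. The single YPD library was integrated *HPRT1R* replicate 1 at 4 of the 5 regions, the library with most peaks, and integrated *HPRT1* replicate 2 at *MIG2*.

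The 10 YPD regions of 4 against 1 with the highest mean fold enrichment included that upstream of *GAS1*, a glucanosyltransferase of the cell wall. *GAS1* had 4.07 in 1 SC-Leu library and 3.12, 3.72, 4.98 and 3.52 in the 4 YPD libraries. The other 9 lay at a leucine tRNA gene (YNCD0008W), at YHR033W, between *CUS1* and *YHM2*, between *KRE5* and *ALA1*, between *MMF1* and *PCL7*, in the coding sequence of *PGK1* (the glycolytic phosphoglycerate kinase), upstream of *RPL1B* (a ribosomal protein), at the subtelomeric helicase gene YPR204W and in YMR082C. None of the 36-bp stretches of the YPR204W window was unique in the genome, so that reads there cannot be assigned to 1 place. At all 10 the SC-Leu library with a peak had a fold enrichment between 2.34 and 4.07, and the YPD libraries had values between 2.48 and 4.98. The single SC-Leu value lay within the range of the 4 YPD values at 6 of the 10, *GAS1* among them, above it at YHR033W and *MMF1*, and below it at *CUS1* and YMR082C. The class therefore says how many libraries passed the caller, not that fold enrichment differed.

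Among the 6 SC-Leu regions of 3 against 0 were 2 upstream of genes of leucine supply and amino acid uptake. *BAT1* (YHR208W), the mitochondrial branched-chain transaminase, had 2.65 in 1 *HPRT1* episome library and 2.41 and 2.34 in both *HPRT1R* episome libraries, and no YPD library had a peak within 4587 bp. Its mean of 2.47 was the lowest of the 6. *STP1*, the factor of amino acid sensing, had 2.81 and 2.52 in the *HPRT1* episome libraries and 2.87 in 1 *HPRT1R* episome library, and the nearest YPD peak was 467 bp away. The other 4 lay upstream of *SVL3*, at an asparagine tRNA gene (YNCK0003W), in YBR221W-A beside *PDB1*, a subunit of mitochondrial pyruvate dehydrogenase, and at the small nucleolar RNA gene *SNR72* beside *BUD22*.

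The YPD class of 3 against 0 held 32 regions, and the 10 with the highest mean fold enrichment were led by *IMT4*, the initiator methionine tRNA gene shown above, with 3.51 in 1 integrated *HPRT1* library and 4.67 and 4.35 with integrated *HPRT1R*. Its 72 bp, like those of *IMT3*, have 5 exact copies in the genome, and *IMT3* stood in an SC-Leu class while *IMT4* stood in a YPD class. The region between *VAC17* and *CHA1*, the second a serine and threonine deaminase, had 2.86 in 1 integrated *HPRT1* library and 4.52 and 4.02 with integrated *HPRT1R*. The region between *DAL3*, a ureidoglycolate hydrolase of allantoin breakdown, and *MGA2* had 2.99 and 3.57 with integrated *HPRT1* and 3.27 in 1 integrated *HPRT1R* library, and the nearest SC-Leu peak was 23331 bp away. The other 7 lay at tRNA genes for glutamine beside *GRX3* (YNCD0014C) and aspartate (YNCG0023C), and at *NQM1*, *PLB2* beside YMR007W, *TPN1*, *HOF1* with *EIS1*, and *COX13*.

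The kinds of site were compared by the place of the median summit. Of the 13 SC-Leu regions in the 3 classes 3 were in divergent and 4 in tandem intergenic DNA, 4 were inside coding genes and 2 were within 100 bp of a tRNA gene. Of the 50 YPD regions 18 were divergent, 15 tandem, 8 inside coding genes and 9 at tRNA genes. Among all 1864 regions the shares were 34.3%, 30.9%, 20.2% and 11.2%. Of the 299 tRNA genes, between 110 and 132 had a summit within 100 bp in the SC-Leu libraries and between 112 and 162 in the YPD libraries, and these ranges overlapped. Windows in which fewer than 50% of the 36-bp stretches were unique were 0 of the 13 SC-Leu and 3 of the 50 YPD regions, against 8.53% of all regions. On chromosome XI, where the DNA was integrated, 3 of the 63 regions lay, the nearest 2835 bp from the integration site.

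Within the *HPRT1* strains alone, both SC-Leu libraries and no YPD library had a peak at 37 regions, and both YPD libraries and no SC-Leu library at 36. Within the *HPRT1R* strains the counts were 14 and 94. The SC-Leu regions of both comparisons had 2 in common, 5.41% of the 37 and 14.3% of the 14. By definition these are the 2 regions of 4 against 0, and at 1 of them, *LEU2*, the YPD strains lack the DNA. The YPD regions had 5 in common, again those of 4 against 0, 13.9% of the 36 and 5.32% of the 94. In opposite directions, 1 region was shared between the 37 and the 94 and 0 between the 36 and the 14. YPD regions thus outnumbered SC-Leu regions in the *HPRT1R* strains, whose YPD libraries had the most peaks, while the counts were about equal in the *HPRT1* strains. This difference between the strains was not tested. With the 1007 peaks of lowest p in every library, the classes held 4, 8 and 10 SC-Leu and 2, 4 and 16 YPD regions.

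Promoters were taken as 500 bp upstream to 100 bp downstream of the coding start of each of 6021 protein-coding genes. A summit in this window was found for 846 to 908 genes in the SC-Leu libraries and for 824 to 1123 in the YPD libraries, for 1931 genes in any library and for 263 in all 8. *SOM1*, of mitochondrial protein processing, was the only gene with 4 against 0 in SC-Leu (0.0166% of 6021), with 2.67, 2.52, 3.17 and 3.22. In YPD there were 5 (0.083%), *GAL2*, *LSB5*, *YOX1* and the transposon genes YDR034C-C and YDR034C-D. The transposon genes share 1 site, the region at YNCD0008W, which was 4 against 1 as a region. *HPRT1R* episome replicate 2 also had a peak there (3.52), with its summit outside the promoter window. *SOM1* and *YOX1* are named here after their values were seen. The window of *SOM1* was overlapped by a peak in 1 YPD library and that of *YOX1* in 3 SC-Leu libraries, whose summits lay outside it.

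A promoter summit in at least 3 more SC-Leu than YPD libraries was found for 30 genes (0.498%), and in at least 3 more YPD than SC-Leu libraries for 57 (0.947%). When any overlap of a peak with the window was counted, 11 of the 30 and 42 of the 57 still met that limit. The 16 lists of genes that respond to amino acids, nitrogen, phosphate, metals, vitamins, carbon source or stress held 398 genes. Of these, 5 (1.26%) had at least 3 more SC-Leu libraries and 4 (1.01%) at least 3 more YPD libraries, shares to be read against 0.498% and 0.947%. The lists were chosen with earlier results of these data known, and the shares were not tested. A promoter summit in any library was found for 1931 of all 6021 genes. Among the lists it ranged from 4 of 32 genes (vitamins) to 10 of 13 (branched-chain), so that the shares rest on unlike bases.

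The 5 SC-Leu genes were *BAT1*, *STP1*, *TRP3*, *MET4* and *TAT1*. *TRP3*, an enzyme of tryptophan synthesis, had a summit in its promoter in 4 SC-Leu libraries (4, 3.15, 3.92 and 3.66) and in 1 YPD library (4.86). *MET4*, the activator of sulphur amino acid genes, and *TAT1*, a permease for branched-chain and aromatic amino acids, were likewise at 4 against 1. For these 3 a peak overlapped the window in all 8 libraries, and most YPD summits lay outside it. At *TAT1* the nearest summits were at -474, -456, -392 and -441 bp from the coding start in SC-Leu and at -551, -469, -548 and -512 bp in YPD. *BAT1* and *STP1* kept 3 against 0 by overlap. The 4 YPD genes were *GAL2*, *DAL3*, *SHM2*, a serine hydroxymethyltransferase counted with purine synthesis, and *PHO4*, the activator of phosphate genes. *SHM2* had 3.26 in 1 SC-Leu library and 3.64, 2.72, 3.43 and 3.35 in the YPD libraries, and its window was overlapped in 2 SC-Leu and 4 YPD libraries. At *PHO4* it was overlapped in all 8.

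Of the 13 branched-chain genes 10 had a promoter summit in some library, between 4 and 8 genes in the SC-Leu libraries and between 3 and 6 in the YPD libraries. Of these 10, 7 had it in more SC-Leu libraries and 3 in more YPD libraries. Of the 1931 genes with a promoter summit in any library, 556 had it in more SC-Leu and 821 in more YPD libraries (9.23% and 13.6% of all 6021 genes). The 7 include *LEU2*, which the YPD strains lack, and *LEU9* and *ILV2*, each with a summit in *HPRT1R* episome replicate 1 alone (3.62 for both). *OAC1*, the mitochondrial carrier for the leucine precursor, had 3.55, 3.03, 2.87 and 3.52 in SC-Leu and 3.14, 2.8 and 3.52 in 3 of 4 YPD libraries. *BAT2*, the cytosolic transaminase, had a summit in 3 SC-Leu libraries (4.3, 3.28 and 3.47) and in all 4 YPD libraries (3.42, 3.04, 3.22 and 3.3), and *ILV6*, the regulatory subunit of acetolactate synthase, in 3 SC-Leu and 4 YPD libraries. *ILV3* had a summit in 2 SC-Leu libraries and 1 YPD library, and *LEU4* in 1 SC-Leu library and 3 YPD libraries. The *LEU4* window was overlapped by a peak in 4 SC-Leu and 4 YPD libraries. It shares 1 divergent region with *MET4*, so that the opposite counts of these genes are not separate results. *LEU2*, *LEU9* and *ILV2* had one in 1 SC-Leu library and in no YPD library, and *LEU1*, *LEU3* and *ILV1* in none. The marker genes *URA3*, *HIS3* and *MET17* had no peak in any library, and of the 4 strain markers 0 to 1 had a promoter summit in SC-Leu and 0 in YPD. All strains carry *ura3Δ0*, *his3Δ1* and *met15Δ0*, the last a deletion of *MET17*. The absence of peaks at *URA3* and *MET17* therefore cannot be read as closed chromatin. How much of *HIS3* is left by *his3Δ1* was not examined, so that its absence of peaks cannot be read so either.

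For the other lists, the numbers of genes with a promoter summit per library had overlapping ranges. Other amino acid synthesis had 14 to 20 genes in SC-Leu and 19 to 22 in YPD, and the sulphur genes 6 to 13 and 7 to 11. Amino acid permeases had 4 to 8 in SC-Leu and 4 to 7 in YPD, and nitrogen catabolite genes 4 to 9 and 7 to 9. Purine synthesis had 1 to 4 genes in SC-Leu and 4 to 6 in YPD, of 18. Phosphate genes had 4 to 7 in SC-Leu and 3 to 7 in YPD, the metal genes 6 to 10 and 8 to 11, vitamins 2 to 2 and 1 to 3, and the inositol and phospholipid genes 4 to 5 and 4 to 5. Hexose transport had 2 to 4 in SC-Leu and 3 to 6 in YPD, glucose-repressed genes 3 to 4 and 3 to 4, and glycolysis and fermentation 12 to 13 and 12 to 16. General stress genes had 8 to 13 in SC-Leu and 11 to 15 in YPD, and drug export 5 to 10 and 6 to 9. The ranges for purine synthesis shared only the value 4. Genes with a summit in more YPD than SC-Leu libraries outnumbered the reverse in other amino acid synthesis (5 in more SC-Leu and 14 in more YPD libraries), purine synthesis (1 and 7), nitrogen catabolite genes (2 and 6), permeases (4 and 5), inositol and phospholipid genes (2 and 3), hexose transport (2 and 5), glycolysis and fermentation (2 and 9), general stress (3 and 11) and drug export (4 and 6), the direction of all genes. The counts were 6 and 5 for sulphur, 3 and 3 for phosphate, 7 and 6 for metals, 1 and 0 for vitamins and 3 and 2 for glucose-repressed genes.

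The overlap of base pairs in peaks between libraries, as the Jaccard index, averaged 0.517 over the 12 pairs within a medium and 0.505 over the 16 pairs between media. The difference of 0.0126 was the largest of the 35 divisions (exact one-sided permutation p = 0.0286, the smallest this test can give). The division by locus gave 0.0029 (exact p = 0.229) and that by replicate number -0.0028 (exact p = 0.8). The mean was 0.506 over the 6 pairs within SC-Leu (0.489 to 0.524) and 0.529 over the 6 pairs within YPD (0.507 to 0.549), against 0.505 over the pairs between media (0.486 to 0.524), and the SC-Leu mean was thus close to that between media. With peaks of -log10 q of at least 5 the difference was 0.0182 and the exact p was 0.0571. Without 1 YPD library it was between 0.0074 and 0.0105, with exact p from 0.0857 to 0.171, whichever of the 4 was left out.

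**Figure D3:**
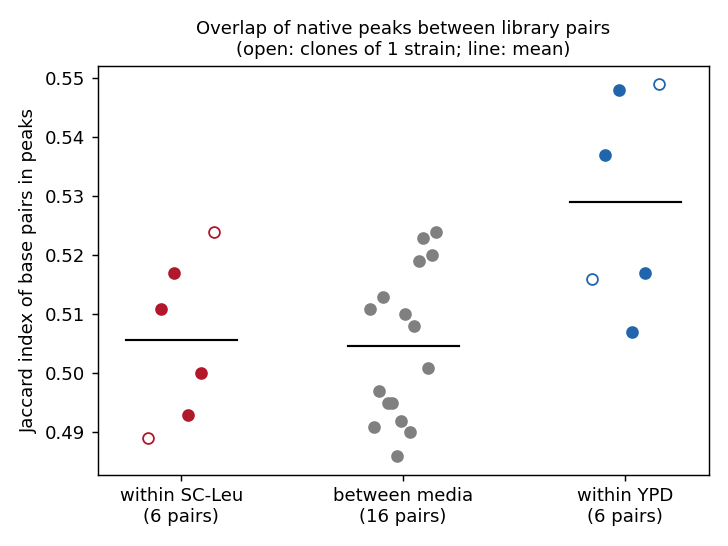
Each point is the Jaccard index of native base pairs in peaks for 1 pair of libraries (vertical axis), for pairs within SC-Leu, between media and within YPD, with open points for clones of 1 strain and a line at the mean. The means were 0.506, 0.505 and 0.529.

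Fold enrichment was compared at the 514 regions with a peak in all 8 libraries, where every value was measured. This choice left out regions where a library of either medium lacked a peak. Of these, 108 had 4 YPD and 3 SC-Leu libraries, and 55 had 4 SC-Leu and 3 YPD libraries. A difference large enough to remove a peak therefore could not be called in this fit. Values were log2 fold enrichments of the highest peak, centred on each library's median over these regions, and limma was fitted with a term for the locus. The highest peaks of a region could have summits apart in different libraries. At 195 of the 514 regions the summits lay within 200 bp of each other, and a fit of those called 0 regions. No region was called higher (0%) or lower (0%) in SC-Leu at an adjusted p under 0.05, and 42 (8.17%) had an unadjusted p under 0.05, 18 higher and 24 lower in SC-Leu. The median absolute log2 difference was 0.102 and the median SE 0.134. The interaction of medium with locus called 0 regions (24 at an unadjusted p under 0.05, lowest adjusted p = 0.91), while the locus term called 3. Over the 514 regions the difference in *HPRT1* strains and that in *HPRT1R* strains, which share no library, had the same sign at 53.3% and a Pearson r of 0.126 across regions, which are not independent. The r between the locus difference in SC-Leu and that in YPD was 0.168.

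The lowest p in the fit was at the region upstream of *AGP1* (YCL025C), the broad amino acid permease. Fold enrichment at chrIII:78018-78613 was 4.15 and 2.9 in the *HPRT1* episome libraries and 4.22 and 3.96 in the *HPRT1R* episome libraries, against 5.46 and 5.15 with integrated *HPRT1* and 7.01 and 7.37 with integrated *HPRT1R*. All 4 SC-Leu values were below all 4 YPD values, with means of 3.81 ± 0.616 in SC-Leu and 6.24 ± 1.11 in YPD (SD, n = 4 each). The log2 difference was -0.57 ± 0.13 (SE; limma, adjusted p = 0.0584), and it was -0.525 in *HPRT1* and -0.618 in *HPRT1R* strains. The call depended on the setting: the adjusted p was 0.0365 on log2(fold enrichment + 1), 0.0481 without *HPRT1* episome replicate 1 and 0.0148 without centring. It was 0.0775 with medium alone and between 0.134 and 0.4 without any 1 of the other 7 libraries. The highest peaks at *AGP1* had summits spread over 229 bp, so that it was not in the fit of summits within 200 bp. It was also not in the fit of regions with a -log10 q of at least 5 in all 8 libraries.

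*GSY1*, a glycogen synthase, came next. Fold enrichment was 2.96 and 2.77 with the *HPRT1* episome and 2.87 and 2.78 with the *HPRT1R* episome, against 4.29 and 4.57 with integrated *HPRT1* and 4.21 and 4.69 with integrated *HPRT1R*. The groups did not overlap, and the values within each medium were close together (SD 0.0876 in SC-Leu and 0.229 in YPD). The log2 difference was -0.50 ± 0.13 (SE; limma, adjusted p = 0.0977). The summits at *GSY1* were spread over 312 bp, and it too was in neither of those fits. *ERG5*, a desaturase of ergosterol synthesis, had 3.26 and 3.03 with the *HPRT1* episome and 3.77 and 2.93 with the *HPRT1R* episome, against 5.02 and 4.86 with integrated *HPRT1* and 4.67 and 4.69 with integrated *HPRT1R* (log2 difference -0.43, limma adjusted p = 0.381). The other 7 of the 10 regions with the lowest p among those lower in SC-Leu lay between *PEX2* and *OPT1*, an oligopeptide transporter, upstream of *RSB1* and *MSB2*, between *ZOD1* and *UFO1*, between *SSA1*, a cytosolic chaperone, and *EFB1*, between YIL012W and *PDR11*, and between *HST3* and *AHC1*. Their log2 differences ran from -0.44 to -0.34 and none passed the test (limma adjusted p of 0.43 to 0.486).

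Among regions higher in SC-Leu the lowest p was between *RPL41B*, a small ribosomal protein, and *SRF1*. Fold enrichment was 4.15 and 4.79 with the *HPRT1* episome and 4.83 and 4.69 with the *HPRT1R* episome, against 3.51 and 3.43 with integrated *HPRT1* and 4.05 and 4.35 with integrated *HPRT1R*. The ranges overlapped as deposited and did not overlap after centring. The log2 difference was 0.41 ± 0.13 (SE; limma, adjusted p = 0.381). Of the 10, 2 lay at amino acid genes. The region between *MET4* and *LEU4*, the main isopropylmalate synthase of leucine synthesis, had 4.3 and 3.03 with the *HPRT1* episome and 4.83 and 3.96 with the *HPRT1R* episome, against 3.38 and 2.86 with integrated *HPRT1* and 2.96 and 4.19 with integrated *HPRT1R* (log2 difference 0.41, limma adjusted p = 0.43). The region upstream of *LYS21*, a homocitrate synthase of lysine synthesis whose window with TCCNNNGGA is shown above, had 3.7 and 3.53 with the *HPRT1* episome and 3.77 and 4.1 with the *HPRT1R* episome, against 3.64 and 3.29 with integrated *HPRT1* and 3.11 and 3.18 with integrated *HPRT1R* (log2 difference 0.33, limma adjusted p = 0.486). As deposited the ranges overlapped at both, and after centring they overlapped at *MET4* and not at *LYS21*. The summits were spread over 412 bp at *MET4* and over 127 bp at *LYS21*. The other 7 lay near YOL155W-A and *HXT11*, *SPO24*, *MAE1*, *NRD1*, a tRNA gene beside *ERV15*, a tRNA gene beside *PGM1*, and *RIM101*, with log2 differences of 0.28 to 0.35 (limma adjusted p of 0.486 to 0.588).

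**Figure D4:**
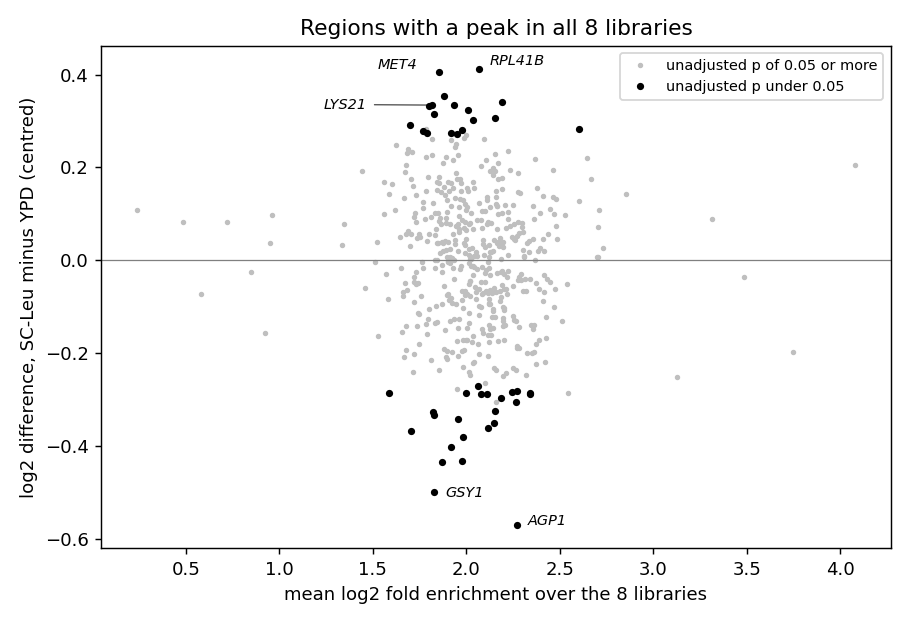
Each of the 514 points is a region with a peak in all 8 libraries, with its mean log2 fold enrichment (horizontal axis) and its centred log2 difference of SC-Leu minus YPD (vertical axis), black where the unadjusted p was under 0.05. *AGP1* lies lowest at -0.57 and *RPL41B* highest at 0.41, and no point passed an adjusted p of 0.05.

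Without centring, the share of the 514 regions with a higher value in SC-Leu was 17.3%, against 52.5% after it, because the median log2 difference was then -0.133. In that setting 3 regions were called, *AGP1*, *GSY1* and *ERG5*, all lower in SC-Leu. Library medians of log2 fold enrichment over these regions were 1.87 to 2.04 in SC-Leu and 2.00 to 2.28 in YPD, with the 2 integrated *HPRT1R* libraries highest. In a culture of many cells, a lower value cannot tell fewer cells with an open site from less opening in each.

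**Figure D5:**
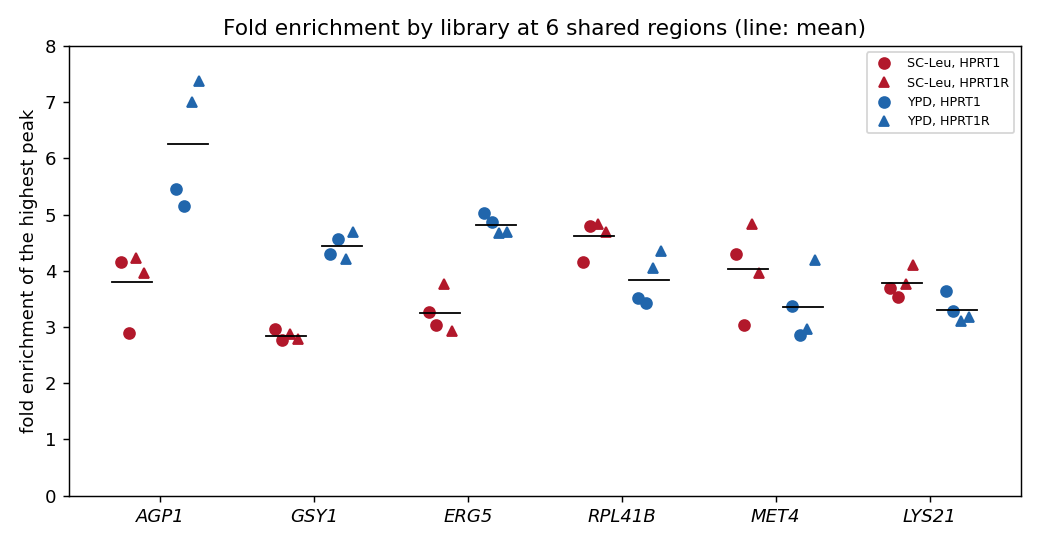
Fold enrichment of the highest peak (vertical axis, from 0) is shown for each library at 6 shared regions, SC-Leu left and YPD right within each, with circles for *HPRT1* and triangles for *HPRT1R* strains and a line at the mean. The values are not centred: at *AGP1*, *GSY1* and *ERG5* the groups do not overlap with or without centring, while at *RPL41B* and *LYS21* they overlap only without it and at *MET4* in both.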

How the data were processed

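ATAC-seq peak lists of 8 *S. cerevisiae* libraries were used, 1 per clone. Per the submitters' processing notes and the methods, the authors used bcl2fastq 2.20, aligned trimmed reads with Bowtie2 2.2.9 to a sacCer3 reference extended by the synthetic construct, and used SAMtools 1.9 and deepTools 3.5.0. Peaks were called with MACS2 2.1.0 in each library separately, in paired-end mode with duplicates kept and without a control library. The deposited lists give for each peak a fold enrichment over the local background, which is a ratio, and a -log10 p and a -log10 q (q of 0.05 or less), while the deposited score column, a whole-number form of the q, was not used. The authors' fold enrichments are not normalised between libraries. Reads per library are not in the lists, so that depth was described by peaks per library and by fragments at the summit, recovered from the -log10 p within a tolerance of 0.001 for 99.3 to 99.6% of peaks.

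Native peaks were merged where they overlapped by 1 bp. Coordinates are those of the lists, and the R64 reference matched them, since both homology arms of the integration site (chrXI:146136-146350 and chrXI:146508-146829) were found unchanged and 0 peaks ran past a chromosome end. Summits were assigned to promoters (500 bp upstream to 100 bp downstream of the coding start) and to tRNA genes (within 100 bp). Groups were compared by exact permutation tests over the 70 arrangements of libraries for measures with 1 value per library, with Benjamini-Hochberg adjustment over 5 measures, and over 35 divisions for the Jaccard index. Fold enrichment at regions with a peak in all 8 libraries was tested with limma 3.58.1 in R 4.3.3 on log2 values centred on the library median, with a term for the locus. Python 3.11.15, numpy 2.4.6, pandas 2.3.3, scipy 1.17.1 and matplotlib 3.10.9 were used, and the tests were tested on simulated data. The 2 samples of a strain are separate clones, so that p-values measure the spread between clones.

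Regions and genes were named by a rule: all regions of 4 against 0, up to 10 of each other class by mean fold enrichment, the 10 lowest limma p in each direction, listed genes with a promoter summit in at least 3 more libraries of one medium, the strain markers and the branched-chain genes with a promoter summit. The regions, gene lists and tests were chosen with earlier results of these data known. Alternatives were other q limits, lists of equal length (1007 peaks), summits joined within 100 bp, other promoter windows, other fits and the omission of each library. Peaks on the sequence of the synthetic locus and its vector were left out, but the vector's *LEU2* reads, placed at *LEU2* on chromosome III, were not.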

Additional observations from a re-analysis of the deposited data

Results flagged for a closer look

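In groups of 4 libraries the highest or lowest value was set apart when its gap to the next, divided by the range, passed Dixon's critical value, which chance exceeds in about 1 in 20 groups. Of 52 groups 3 did so. *HPRT1* episome replicate 2 had a median fold enrichment of 3.15, against 3.51 to 3.55 in the other SC-Leu libraries (ratio 0.897), and a genome-wide background of 6.93 fragments, against 5.63 to 5.82 (ratio 0.851). Near YOL155W-A the centred log2 fold enrichment of *HPRT1* episome replicate 1 was 0.567, against 0.193 to 0.245 in the other SC-Leu libraries (ratio 0.86). Outside the native genome, the sequence of the episome vector had 3 to 4 peaks in each SC-Leu library, with a mean of 3.75, and 0 in the YPD libraries, whose strains do not carry it.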

How the results depend on the processing

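Over 154 alternatives of the counts and library measures, 94 kept the value or the side of the threshold, 52 moved, 5 were weaker, 3 stronger and 0 reversed, and the causes were not tested. Counts could only be labelled kept (within a ratio of 1.5) or moved, so that 0 reversed does not cover their direction. The order of the media did change. With 1007 peaks per library SC-Leu had more regions than YPD at 4 against 0 (4 and 2) and at 4 against 1 (8 and 4). Promoters of 4 against 0 with 200 bp upstream numbered 2 and 1. Of 252 alternatives for the named shared regions 246 kept their call, 6 were stronger and 0 reversed.

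With a -log10 q of at least 5, SC-Leu had 0 regions of 4 against 0 and 0 of 3 against 0, YPD had 20 of 3 against 0, and promoters of 4 against 0 numbered 0 in SC-Leu and 3 in YPD. YPD still had 5 regions of 4 against 0, but 0 of the 5 in the report were among them. With 1007 peaks taken from each library, regions of 4 against 0, 4 against 1 and 3 against 0 numbered 4, 8 and 10 in SC-Leu and 2, 4 and 16 in YPD. With summits joined within 100 bp, YPD had 8 regions of 4 against 0, and SC-Leu had 9 of 4 against 1 and 18 of 3 against 0. Of the report's regions of 4 against 0, that setting kept 0 of 2 in SC-Leu and 4 of 5 in YPD. Promoters of 4 against 0 numbered 2 in SC-Leu and 1 in YPD with 200 bp upstream, and 2 in SC-Leu by any overlap.

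Chosen after seeing the data, the strains of 1 locus gave, at 2 libraries against 0, 37 SC-Leu and 36 YPD regions with *HPRT1* and 14 and 94 with *HPRT1R*, and the omission of the 2 integrated *HPRT1R* libraries gave 12 and 18. Without the *LEU2* region, also chosen later, SC-Leu had 1 region of 4 against 0. Without 1 library at a time, regions numbered 2 to 6 in SC-Leu and 7 to 18 in YPD, and promoters 2 to 9 and 7 to 25, fewer libraries being required. The difference in native peaks ran from -164 to -68.1 (exact permutation p of 0.0286 without integrated *HPRT1* replicate 2), in bases from -57248 to -21308 (0.0286 without the same library), in median fold enrichment from -0.292 to -0.079 (0.0286 without integrated *HPRT1* replicate 1) and in promoter summits from -0.357 to 0.474 percentage points. The Jaccard difference ran from 0.0074 to 0.0180, and was 0.0182 (exact p = 0.0571) with -log10 q of at least 5.

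Regions called lower in SC-Leu by limma numbered 3 without centring, 1 on log2(fold enrichment + 1) and 0 to 1 without 1 library. With the replicate block, in which the replicate number was added to the locus term, limma called 1 region lower, *AGP1* (log2 difference -0.571, adjusted p = 0.0393). The numbers did not pair the libraries, since deviations of same-numbered libraries correlated between -0.061 and 0.047. Read totals are not in the lists, so that a library without a peak cannot be told from one too shallow to call it.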
